A study of Mus musculus with 2 samples.

Results

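The genes described here are Syn2, Gulo, Dab1, Myrip, Sbspon, Bpifb5, Tmc7 and Krt23, 8 genes of the 19070 in the count tables. They were picked as leading genes of the glandular-like cells of the endometrium of mice on day 3 of pregnancy. In the clustering used here, Syn2, Gulo, Dab1 and Bpifb5 stood before the other members among the leading genes of those cells. All 8 are less often used as gland markers than Foxa2 and Cxcl15. They were chosen by their high level in glandular-like cells of these same libraries, so that their level in glandular-like against luminal-like cells is a description and was not tested. RNA of single cells, fixed and read with gene probes (the 10x Flex assay), was counted in 1 library from Erbb3 f/f females, the controls, and in 1 from Erbb3 d/d females, whose stroma lacks Erbb3 according to the submitters. The driver of the deletion, the animals' age and the number of mice behind each library were not given in the sources used here. With 1 library per genotype no difference between genotypes could be tested. Every interval below is a 95% interval that covers counting error only, and neither differences between animals nor those between preparations of tissue.

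Uterine glands are tubes of epithelium that grow from the luminal lining of the uterus into the stroma and secrete factors that the embryo and the lining need around implantation. Foxa2 encodes a transcription factor restricted to the glands in the adult mouse uterus, and Cxcl15 a chemokine made by gland cells. The 8 genes have other roles. Syn2 encodes synapsin II, a protein on the surface of synaptic vesicles, and Myrip a protein that links Rab27 on secretory granules to myosin motors. Gulo encodes L-gulonolactone oxidase, the last enzyme of vitamin C synthesis, which is active in mice and lost in humans. Dab1 encodes the adaptor that passes the reelin signal on inside the cell. Sbspon encodes a secreted protein with a somatomedin B and a thrombospondin type 1 domain, Bpifb5 a protein of the BPI fold family, Tmc7 a transmembrane channel-like protein and Krt23 a type I keratin.

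The f/f library held 5783 cell barcodes and 6819591 UMIs (unique molecules counted), the d/d library 2125 barcodes and 2866862 UMIs, and no complete barcode occurred in both, although 158 shared their first 16 bases. After barcodes with a mitochondrial share above 10% and 6 doublet calls were left out, 5502 f/f and 1825 d/d cells remained, with medians of 809 and 763 UMIs. Clusters were named from fixed markers, and 820 f/f and 117 d/d cells were glandular-like, 2582 and 1128 luminal-like and 1388 and 304 stroma-like. The name glandular-like rested on 8 markers, which in these cells were Foxa2 (41 f/f and 2 d/d UMIs), Cxcl15 (114 and 9), Wfdc3 (27 and 1), Spink1 (23 and 2), Sox9 (65 and 9), Aldh1a1 (15 and 5), Prss29 (2 and 2) and Prss28 (0 in both). For Aldh1a1 the log2 ratio of glandular-like over luminal-like cells had an interval that included 0 in f/f, at -0.12 (-1.03 to 0.71), and the gene stood at 61.8 and 81.7 CPM (UMIs per 1000000 UMIs of the class) in the same classes of d/d. The naming rule was the third one tried and was settled with the clusters' leading genes in view, so this class is not independent of the 8 genes even though they were kept out of the clustering. Erbb3, the targeted gene, had 15 UMIs in the stroma-like cells of f/f and 1 in those of d/d, or 10.7 CPM (5.99 to 17.6) and 3.02 CPM (0.0763 to 16.8), with overlapping intervals. In luminal-like cells it stood at 74.1 CPM (64.4 to 84.9) from 208 UMIs in f/f and 37.1 CPM (26.4 to 50.7) from 39 UMIs in d/d, where the intervals did not overlap. In glandular-like cells it stood at 55.2 CPM (38.9 to 76.1) from 37 UMIs and 37.1 CPM (7.64 to 108) from 3 UMIs. Whether its probes lie in the deleted part is not given in the sources used here.

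The start regions of the genes differed in base composition. RefSeq start sites on GRCm38.p6 were matched for 6 of the 8 genes, with 8 windows of 250 bases before a start; Syn2 and Dab1 had more than 1 start. Both strands were searched for the forkhead-type motifs TGTTTAC (found in 3.17% of all windows), TGTTTGC (in 4.3%) and TATTTAC (in 2.73%), the GC box GGGCGG, the TATA box TATAAA and the cyclic AMP response element TGACGTCA, which do not overlap one another in the windows shown. Syn2, Bpifb5 and Tmc7 are shown as members whose level was lower in the d/d library, and Krt23 as the member whose level was not. Capitals mark the motifs, and each sequence reads 5′ to 3′ along the gene's strand and ends at the base before the start.
Syn2: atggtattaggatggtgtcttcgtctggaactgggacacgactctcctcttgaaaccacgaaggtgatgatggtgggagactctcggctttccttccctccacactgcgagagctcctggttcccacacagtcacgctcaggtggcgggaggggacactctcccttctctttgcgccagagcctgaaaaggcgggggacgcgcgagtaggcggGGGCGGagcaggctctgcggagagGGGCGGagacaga
Bpifb5: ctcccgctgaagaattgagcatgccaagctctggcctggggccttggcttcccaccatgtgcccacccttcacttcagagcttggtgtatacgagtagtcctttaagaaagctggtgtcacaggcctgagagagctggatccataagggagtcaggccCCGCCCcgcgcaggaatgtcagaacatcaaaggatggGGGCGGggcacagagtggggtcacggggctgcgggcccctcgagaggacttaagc
Tmc7: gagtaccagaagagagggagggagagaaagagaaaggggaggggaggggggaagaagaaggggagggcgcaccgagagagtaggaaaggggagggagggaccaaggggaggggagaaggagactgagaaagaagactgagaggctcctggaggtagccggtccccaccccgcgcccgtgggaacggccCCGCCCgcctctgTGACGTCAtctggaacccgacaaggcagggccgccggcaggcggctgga
Krt23: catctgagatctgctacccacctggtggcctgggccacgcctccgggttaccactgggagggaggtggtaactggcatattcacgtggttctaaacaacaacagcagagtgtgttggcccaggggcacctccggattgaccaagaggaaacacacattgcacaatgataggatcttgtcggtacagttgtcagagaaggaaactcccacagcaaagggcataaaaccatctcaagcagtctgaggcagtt
The Syn2 window is chr6:115134652-115134901 on the plus strand, that of Bpifb5 chr2:154223492-154223741 on the plus strand, that of Tmc7 chr7:118584687-118584936 on the minus strand and that of Krt23 chr11:99493121-99493370 on the minus strand. Each lies directly upstream of an annotated transcript start. GC boxes occurred in 1 of the 2 windows of Syn2, in 1 of the 2 of Dab1 and in those of Bpifb5, Tmc7 and Myrip, against 32.7% of all 32851 windows in the table. The Tmc7 window also held the cyclic AMP response element, 49 bases before the start, which 1.55% of all windows held. The Krt23 window held none of the motifs searched. No forkhead-type motif was found in any member's window, against 9.73% of all windows, while the Cxcl15 window held TATTTAC 238 bases before its start and TATAAA 27 bases before it. GC content ran from 50.4% in the other Syn2 window to 82.4% in that of Myrip, with a median of 52.4% over all windows. The motifs were chosen after these sequences had been seen. Nothing is thus read from their counts beside the shares of all windows, or from differences between the members' windows.

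All 8 genes were detected in both libraries, from 157 UMIs (Bpifb5) to 1153 UMIs (Sbspon) in f/f cells and from 14 UMIs (Bpifb5) to 197 UMIs (Sbspon) in d/d cells. In f/f cells, glandular-like cells held between 43.3% (Sbspon) and 63.1% (Bpifb5) of a gene's UMIs, although they were 14.9% of the cells. In d/d cells they held between 3.33% (Gulo) and 38.3% (Krt23), and were 6.41% of the cells. Levels (CPM) are compared within a gene only, since the probes of different genes capture with different efficiency.

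**Figure D1:**
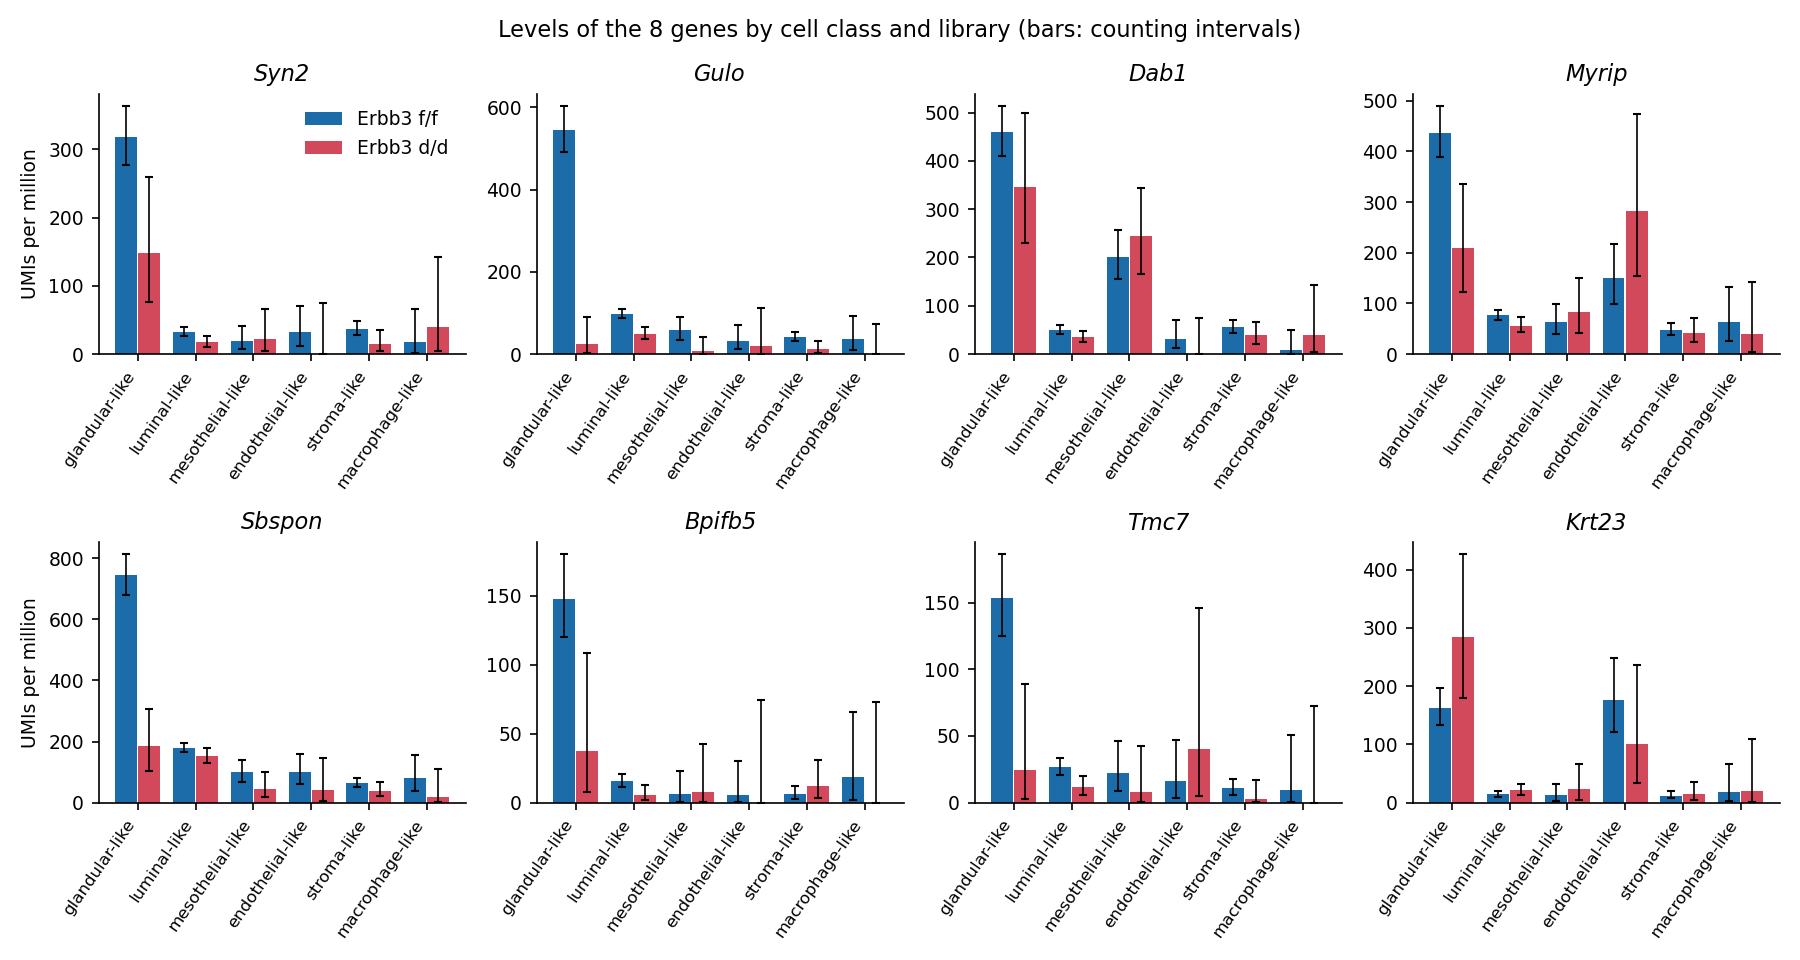
CPM of each gene (y axis) in 6 cell classes (x axis), in blue for the Erbb3 f/f and in red for the Erbb3 d/d library; black bars are exact 95% Poisson intervals. The f/f glandular-like bar was the highest f/f bar for 7 of the genes, Dab1 was also high in mesothelial-like cells, and Myrip and Krt23 in endothelial-like cells.

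Of the genes linked to vesicles, Syn2 stood at 318 CPM (277 to 363) in f/f glandular-like cells, from 213 UMIs, and at 32.1 CPM (25.8 to 39.4) in f/f luminal-like cells, from 90 UMIs. In the d/d library the same classes held 12 and 18 UMIs of Syn2, or 148 CPM (76.6 to 259) and 17.1 CPM (10.1 to 27.0). Myrip stood at 437 CPM (388 to 490.0) in f/f glandular-like and 76.3 CPM (66.4 to 87.2) in f/f luminal-like cells, and at 210.0 CPM (122 to 336) and 56.1 CPM (42.7 to 72.3) in the d/d classes. For both genes the intervals of the f/f and d/d glandular-like levels did not overlap, and glandular-like cells stood above luminal-like cells in each library.

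Gulo, the vitamin C enzyme, had the lowest ratio of d/d over f/f among the 8 genes in glandular-like cells. It stood at 544 CPM (490.0 to 603) in f/f glandular-like cells, with 365 UMIs in 242 of 820 cells, and at 24.7 CPM (2.99 to 89.3) in d/d glandular-like cells, with 2 UMIs in 2 of 117 cells. Luminal-like cells held 275 UMIs of Gulo in f/f (98.0 CPM, 86.8 to 110.3) and 52 in d/d (49.4 CPM, 36.9 to 64.8). In the d/d library the interval of the log2 ratio of glandular-like over luminal-like cells included 0 for Gulo, at -0.9997 (-4.08 to 0.93), whereas in f/f the log2 ratio was 2.47 (2.24 to 2.70).

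Dab1, the reelin adaptor, stood at 459 CPM (409.5 to 514) in f/f and 346 CPM (230 to 500) in d/d glandular-like cells, from 308 and 28 UMIs. In luminal-like cells it stood at 50.6 CPM (42.6 to 59.6) in f/f and 35.2 CPM (24.8 to 48.5) in d/d. The intervals of the libraries overlapped in both classes, and glandular-like cells held more Dab1 per UMI than luminal-like cells in each library, with log2 ratios of 3.18 (2.89 to 3.48) in f/f and 3.30 (2.54 to 4.05) in d/d.

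Sbspon and Bpifb5 are the members with secreted relatives or products. Sbspon stood at 744 CPM (680.4 to 813) in f/f and 185 CPM (104 to 306) in d/d glandular-like cells, from 499 and 15 UMIs. Its luminal-like levels were 179.6 CPM (164 to 196) and 152 CPM (129 to 178), so that glandular-like and luminal-like cells differed 4.14-fold in f/f and 1.22-fold in d/d, the latter with a log2 interval of -0.59 to 1.05. Bpifb5 stood at 148 CPM (120.0 to 179.8) in f/f and 37.1 CPM (7.64 to 108) in d/d glandular-like cells, from 99 and 3 UMIs. Among f/f glandular-like cells Bpifb5 had 57 positive cells, up to 16 UMIs in a cell and a variance 4.07 times its mean, against 1.19 (Tmc7) to 1.95 (Krt23) times for the other members. Of its positive cells 37 had 1 UMI and 7 had 3 or more. The variance depends strongly on the cell with 16 UMIs, and no value without that cell was computed, so Bpifb5 is not called the most uneven.

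Tmc7 stood at 154 CPM (125 to 186) in f/f and 24.7 CPM (2.99 to 89.3) in d/d glandular-like cells, from 103 and 2 UMIs. Krt23, the keratin, stood at 163 CPM (134 to 196) in f/f and 284 CPM (180.1 to 426) in d/d, from 109 and 23 UMIs, an order that 4 of 10 alternatives reversed. In luminal-like cells Krt23 stood at 14.3 CPM (10.2 to 19.4) in f/f and 20.9 CPM (13.1 to 31.7) in d/d, with overlapping intervals. Krt23 had the highest log2 ratio of glandular-like over luminal-like cells of the 8 genes in both libraries, 3.51 (2.98 to 4.07) in f/f and 3.77 (2.86 to 4.68) in d/d. These intervals overlapped those of Syn2, Dab1 and Bpifb5 in each library, so the first place is not settled.

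Between the glandular-like and luminal-like cells of f/f, 705 of 10739 genes with at least 20 UMIs, or 6.56%, stood at least 2-fold higher in the glandular-like cells, and all 8 members were among them, which only restates how they were chosen. The same holds for the interval of the ratio, which lay above 0 for all 8 members, against 17.2% of the 11213 genes with at least 20 epithelial-like UMIs, and below 0 for 15.9% of those genes. In d/d, 828 of 8624 genes, or 9.6%, stood at least 2-fold higher in glandular-like cells, and 4 of the 6 members with enough UMIs did. Those 4 were Krt23, Dab1, Syn2 and Myrip, which held ranks 1, 3, 6 and 79 of the 8624 genes in that library. Sbspon and Gulo, at ranks 3670 and 6863, did not. The libraries were clustered together, and the members were chosen by their level in glandular-like cells of these same libraries. The d/d counts and ranks are thus a description too.

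The sum of the 8 genes was lower in the d/d library. Divided by the UMIs of 8 epithelial markers over all cells, with no use of clusters, the sum was 38.5 per 100 epithelial marker UMIs in f/f (4045 UMIs) and 17.3 in d/d (619 UMIs), a log2 ratio of -1.16 (-1.28 to -1.04). In epithelial-like cells it was 970.2 CPM in f/f and 413 CPM in d/d, a log2 ratio of -1.23 (-1.38 to -1.09). In these cells the log2 ratio was -1.41 (-2.79 to -0.27) for Foxa2 and -1.48 (-2.27 to -0.77) for Cxcl15. These sums do not separate the share of gland cells from the RNA of these genes per gland cell, and neither was tested. The members were picked as leading genes of a class that is mostly f/f cells. Such a choice favours genes that are higher in f/f, so these ratios are given as a description. Under the first naming rule tried, which left 2273 f/f and 625 d/d cells unnamed, the log2 ratio of the sum in epithelial-like cells was -0.49 (-0.69 to -0.29).

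Gene by gene in epithelial-like cells, d/d over f/f gave a log2 ratio of -2.37 (-3.53 to -1.41) for Bpifb5, -2.05 (-2.95 to -1.27) for Tmc7 and -1.95 (-2.38 to -1.55) for Gulo. The ratio was -1.72 (-2.31 to -1.18) for Syn2, -1.17 (-1.57 to -0.80) for Dab1, -1.12 (-1.49 to -0.77) for Myrip and -0.90 (-1.14 to -0.67) for Sbspon. For Krt23 it was -0.11 (-0.62 to 0.38), and 3 of 11 alternatives put it above 0, among them the first naming rule at 1.32 (0.19 to 2.46). The interval lay below 0 for 7 of the members and above 0 for none, against 18.5% below and 19.8% above among 11213 genes, and nothing is read from these counts because the choice of members used the same libraries. The 6 members at least 2-fold lower in d/d were thus all but Sbspon and Krt23, beside 744 of 11213 genes, or 6.64%, and the median log2 ratio was -1.45 over the members and -0.02 over all genes.

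Within glandular-like cells the sum was 2967 CPM in f/f and 1260.0 CPM in d/d, a log2 ratio of -1.24 (-1.54 to -0.95). The log2 ratio was -4.46 (-7.51 to -2.60) for Gulo, -2.64 (-5.70 to -0.75) for Tmc7, -2.01 (-2.85 to -1.27) for Sbspon and -1.99 (-4.30 to -0.41) for Bpifb5. It was -1.10 (-2.08 to -0.26) for Syn2, -1.06 (-1.86 to -0.35) for Myrip and -0.41 (-1.02 to 0.15) for Dab1, and 0.81 (0.09 to 1.46) for Krt23. Here 6 of the 8 members were at least 2-fold lower in d/d, against 467 of 7480 genes, or 6.24%, and with counts of under 3 UMIs set to 3 Gulo held rank 1 of the 7480. The members were chosen from this class, which is mostly f/f cells, so nothing is read from these counts or from the rank. Krt23 changed direction with separate clustering of the libraries (log2 ratio -2.01), at Leiden resolution 0.5 (-0.14), when cells were thinned to 500 UMIs (-0.26) and under the first naming rule (-0.016), so no direction is given for it, whereas Gulo was lower in d/d under all 10 alternatives that gave a value, between -4.96 and -2.40. Over the same alternatives the log2 ratio ran from -3.07 to -0.68 for Syn2, from -2.95 to -0.92 for Myrip, from -2.51 to -0.90 for Sbspon and from -2.40 to 0.14 for Dab1, whose value was above 0 with the mitochondrial share at most 5%.

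**Figure D2:**
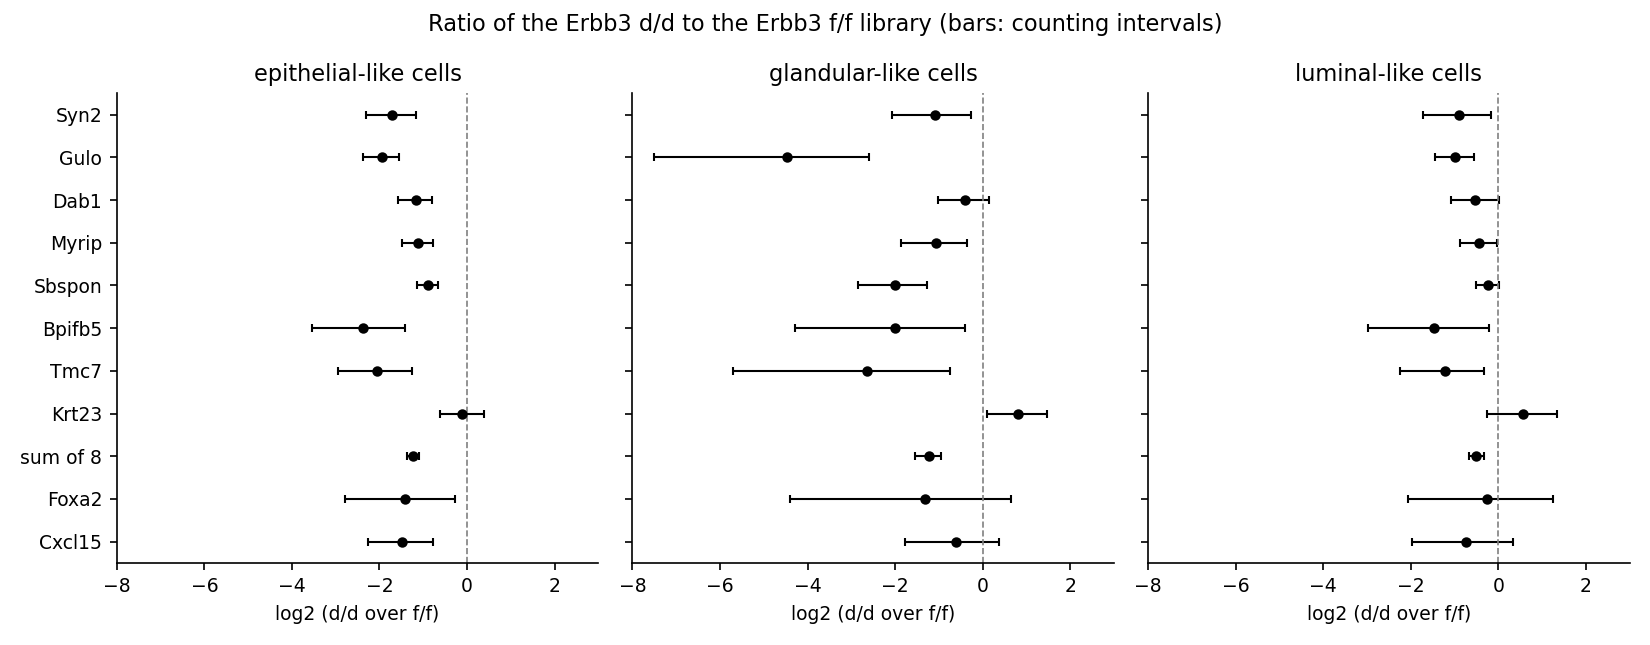
Log2 ratio of the Erbb3 d/d over the Erbb3 f/f library (x axis) for each gene, the sum of the 8, Foxa2 and Cxcl15 (y axis), in epithelial-like, glandular-like and luminal-like cells; points are ratios of CPM and bars exact 95% counting intervals. Gulo lies farthest left among glandular-like cells, at -4.46, and Krt23 is the only member with a value above 0 there, which 4 of 10 alternatives reversed.

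The d/d glandular-like cells also differed from the f/f ones in ways that bear on these values. Their median was 631 UMIs against 693 in f/f, their median mitochondrial share 1.33% against 0.776%, and 11.1% against 6.22% of them had a share above 5%. The 7 stroma markers together stood at 1557 CPM in d/d and 1175 CPM in f/f glandular-like cells, the 8 epithelial markers at 1421 and 1654 CPM. The cycling markers stood at 494 and 194 CPM, the dendritic cell markers at 222 and 97.0 CPM and the B and plasma cell markers at 173 and 11.9 CPM, with Jchain the only one of them detected in d/d (14 UMIs). Their part in the differences was not tested.

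In luminal-like cells the sum was 493 CPM in f/f and 348 CPM in d/d, a log2 ratio of -0.50 (-0.67 to -0.34), but different clusters made up the class in the libraries. Cluster 4, led by cell-division genes such as Kif11 and Tpx2, held 54.9% of the d/d and 6.51% of the f/f luminal-like cells, and cluster 5, led by Arvcf and Slc5a11, 1.42% and 29.4%. Cluster 8, also led by cell-division genes such as Prc1 and Birc5, held 0.266% of the d/d and 11.5% of the f/f luminal-like cells. Within cluster 4 the sum stood at 885 CPM in f/f and 306 CPM in d/d, a log2 ratio of -1.53 (-1.85 to -1.22). Within cluster 0, led by Clca3b, Clca3a2 and Ltf and of like weight in both libraries (32.1% of f/f and 29.5% of d/d), it stood at 408 and 387 CPM, a log2 ratio of -0.08 (-0.43 to 0.27). In cluster 6 the log2 ratio was -0.49 (-0.90 to -0.10), and the other luminal-like clusters had values above 0. In cluster 5 the sum stood at 509.7 CPM in f/f and 942.6 CPM in d/d, from 13 UMIs in 16 d/d cells, a log2 ratio of 0.89 (-0.04 to 1.68). In cluster 8 it stood at 392.7 and 1875 CPM, from 5 UMIs in 3 d/d cells, a log2 ratio of 2.26 (0.62 to 3.5).

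Away from the epithelium, Dab1, Krt23 and Myrip each had a class in which they stood well above the median of the members. As a share of its own glandular-like level, with both libraries pooled, Dab1 reached 47.8% (38.7 to 58.5) in mesothelial-like cells, while the median over the members there was 10.6%. It stood at 201 CPM (155 to 258) in f/f and 244 CPM (167 to 344) in d/d mesothelial-like cells, from 63 and 32 UMIs in 49 of 338 and 20 of 145 cells. The libraries overlapped, with a log2 ratio of 0.27 (-0.39 to 0.91). The defining gland genes Foxa2 and Cxcl15 stood at 2 and 6 UMIs in the f/f and 1 and 0 UMIs in the d/d mesothelial-like cells.

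Endothelial-like cells held Krt23 at 91.5% and Myrip at 43.1% of their glandular-like levels, against a median of 10.7% over the members. Krt23 stood there at 177 CPM (122 to 248) in f/f and 101 CPM (32.8 to 236) in d/d, from 33 and 5 UMIs, and Myrip at 150 CPM (99.5 to 217) and 283 CPM (155 to 475), from 28 and 14 UMIs. In f/f, 28 of 200 endothelial-like cells had a UMI of Krt23 and 18 a UMI of Myrip. For Krt23 in f/f the intervals of endothelial-like and glandular-like cells overlapped, so these neighbours in the order of levels could not be told apart. Foxa2 and Cxcl15 together had 3 UMIs in the f/f and 0 in the d/d endothelial-like cells.

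Macrophage-like cells held each gene at between 4.19% (Dab1, 0.864 to 12.2) and 13.6% (Myrip, 6.23 to 25.85) of its glandular-like level. The counts behind these shares were small, from 1 UMI (Tmc7) to 10 UMIs (Sbspon). Stroma-like cells fell into cluster 3, with 83 UMIs of the 8 genes (132 CPM) and a median mitochondrial share of 0.495%, and cluster 2, with 365 UMIs (331 CPM) and 4.18%. In cluster 2 every member stood between 7.13% (Tmc7) and 15.4% (Dab1) of its glandular-like level, and Foxa2 and Cxcl15 had 12 and 27 UMIs. In cluster 3 they stood between 1.30% (Gulo) and 9.23% (Myrip), and Foxa2 and Cxcl15 had 1 and 5 UMIs. The 8 genes, the gland markers Foxa2 and Cxcl15 and the mitochondrial share were all higher in cluster 2 than in cluster 3. With so few clusters no relation among them can be read, and none was tested.

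**Figure D3:**
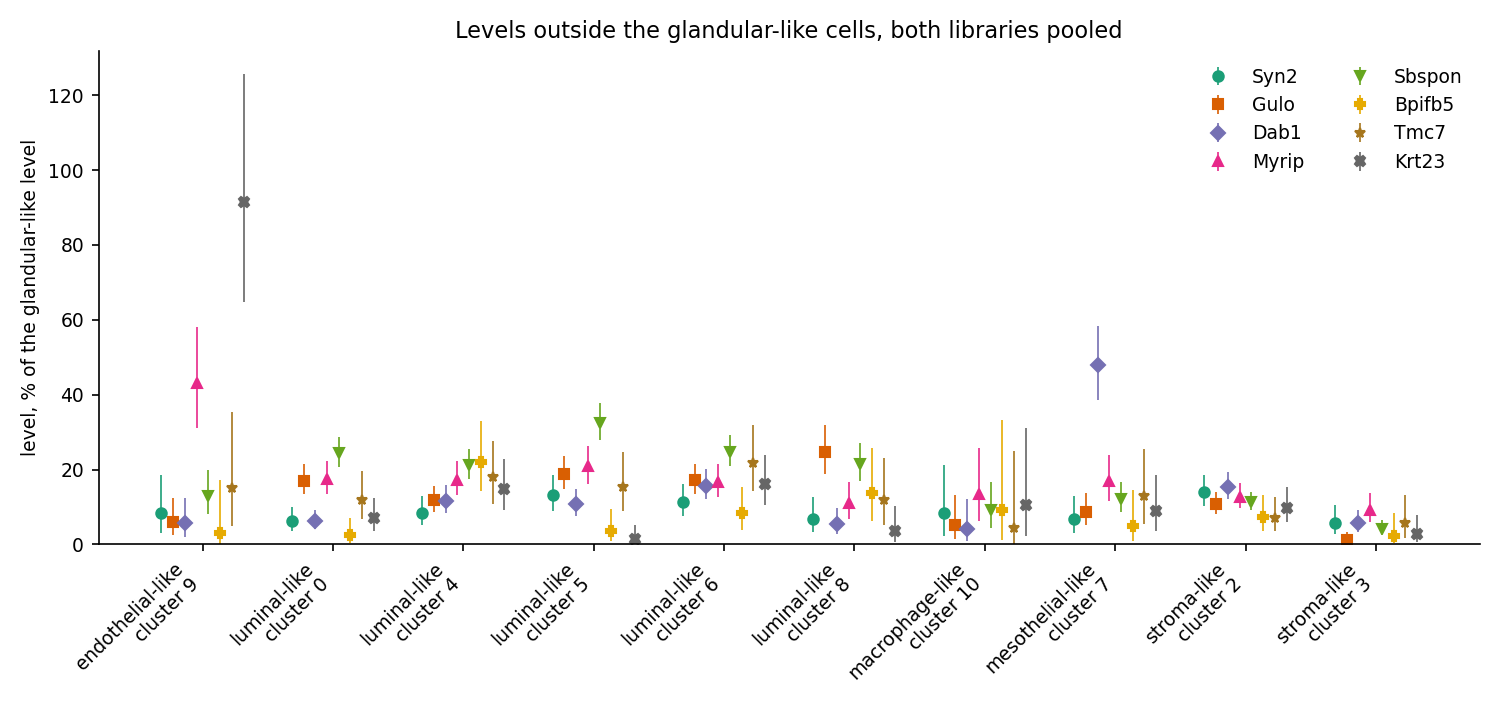
Level of each gene in each cluster outside the glandular-like cells (x axis; the smooth muscle and pericyte cluster is not shown), as a percentage of its level in glandular-like cells (y axis), with both libraries pooled; points are ratios of CPM and lines exact 95% Poisson intervals of the cluster's count. Dab1 in mesothelial-like cells (47.8%) and Krt23 in endothelial-like cells (91.5%) stand clear of the other members of the same cluster. The interval of Myrip in endothelial-like cells (43.1%, 31.0 to 58.2) overlaps that of Tmc7 (15.1%, 4.91 to 35.3).

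Of the 820 f/f glandular-like cells 655, or 79.9% (77.0 to 82.6, exact binomial), had a UMI of at least 1 of the 8 genes, and 400, or 48.8% (45.3 to 52.3), of at least 2. In d/d glandular-like cells 50 of 117, or 42.7% (33.6 to 52.2), had any and 18, or 15.4% (9.38 to 23.2), at least 2. In luminal-like cells 30.8% (29.0 to 32.6) of f/f and 21.9% (19.5 to 24.4) of d/d cells had any. Stroma-like cells gave 12.9% (11.2 to 14.8) in f/f and 12.2% (8.72 to 16.4) in d/d at medians of 743.5 and 735.5 UMIs. What part of any class's share comes from free RNA was not tested.

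Thinning every cell to 500 UMIs, which left out 5 f/f and 1 d/d glandular-like cells, kept the order. Of thinned glandular-like cells 69.3% (66.0 to 72.5) of f/f and 34.5% (25.9 to 43.9) of d/d cells had a UMI of any member, against 18.4% and 13.2% of luminal-like and 7.99% and 5.26% of stroma-like cells. For single genes the thinned f/f glandular-like share ran from 4.91% (Bpifb5) to 26.7% (Sbspon). Gulo was found in 20.5% (17.8 to 23.4) of thinned f/f and 1.72% (0.209 to 6.09) of thinned d/d glandular-like cells, and, among stroma-like cells, in 1.09% of those of f/f and in 0 of 304 of d/d, with an upper exact binomial bound of 1.21%.

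**Figure D4:**
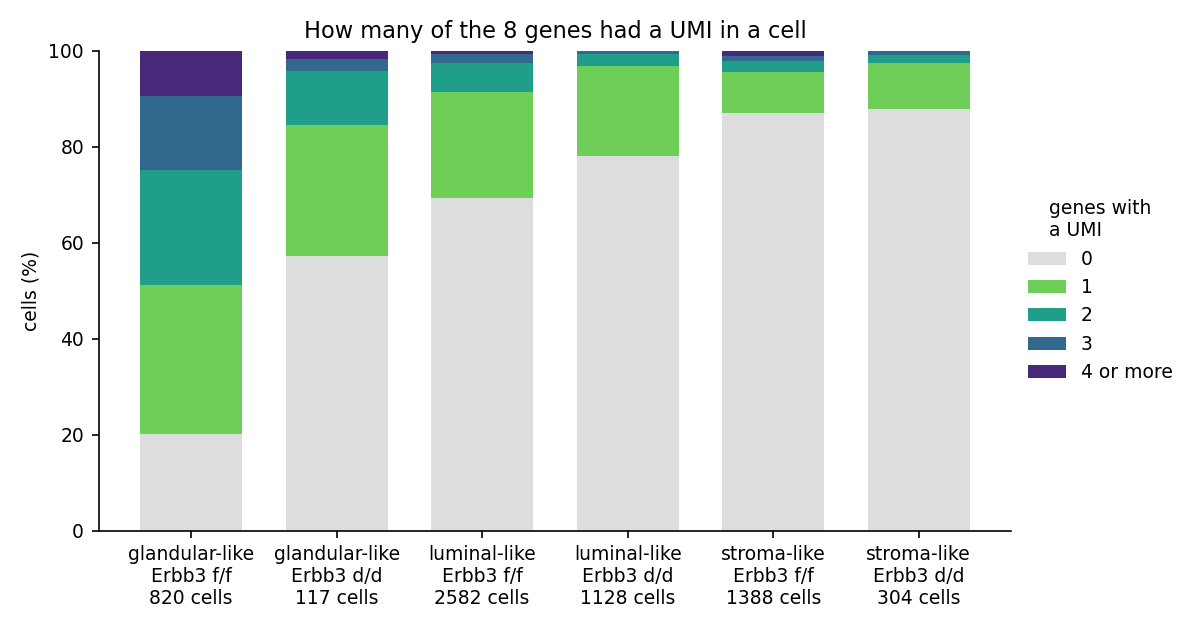
Share of cells (y axis) with a UMI of 0, 1, 2, 3 or at least 4 of the 8 genes, for glandular-like, luminal-like and stroma-like cells of each library (x axis), with all UMIs counted. The f/f glandular-like column has the smallest share without any member, and 42.7% of d/d glandular-like cells had a UMI of at least 1.

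Co-detection with the known gland genes was read in epithelial-like cells. Of the 169 f/f epithelial-like cells with a UMI of Foxa2 or Cxcl15, 139, or 82.2% (75.6 to 87.7), had a UMI of at least 1 of the 8 genes, against 1310 of 3233, or 40.5% (38.8 to 42.2), of cells with neither. The positive cells were deeper, with a median of 911 against 851 UMIs. After thinning, the shares were 69.6% (59.1 to 78.7) of 92 cells and 29.5% (28.0 to 31.1) of 3303. For single genes the unthinned shares in positive and negative cells were 40.8% and 19.2% for Sbspon, 37.3% and 12.2% for Gulo, 27.8% and 10.9% for Myrip, and 26.6% and 8.78% for Dab1. They were 22.5% and 6.4% for Syn2, 12.4% and 2.72% for Krt23, 10.1% and 4.49% for Tmc7, and 8.28% and 2.23% for Bpifb5. After thinning the intervals of positive and negative cells still lay apart for Syn2, Gulo, Dab1, Myrip and Krt23, and overlapped for Sbspon, Bpifb5 and Tmc7. Foxa2 and Cxcl15 are among the markers that named the glandular-like class, and the members were chosen for their level there. Higher shares in positive cells thus follow in part from that choice, and nothing is read from the separation.

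The same shares were read within each class. Inside f/f glandular-like cells, any member was found in 84.9% (77.2 to 90.8) of 119 cells with Foxa2 or Cxcl15 and in 79.0% (75.8 to 82.0) of 701 cells with neither, and thinned in 74.6% and 68.8%. The unthinned intervals overlapped there. Inside f/f luminal-like cells the shares were 76.0% (61.8 to 86.9) of 50 cells and 29.9% (28.1 to 31.7) of 2532, with medians of 1424 and 918 UMIs, and thinned 52.4% (29.8 to 74.3) of 21 and 18.1% (16.7 to 19.7) of 2559. In the d/d library only 17 epithelial-like cells had a UMI of Foxa2 or Cxcl15. Of these 10, or 58.8% (32.9 to 81.6), had a member, against 23.4% (21.0 to 25.8) of 1228 cells with neither, and none of the 17 had Syn2, Gulo or Tmc7, with an upper exact binomial bound of 19.5% each.

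**Figure D5:**
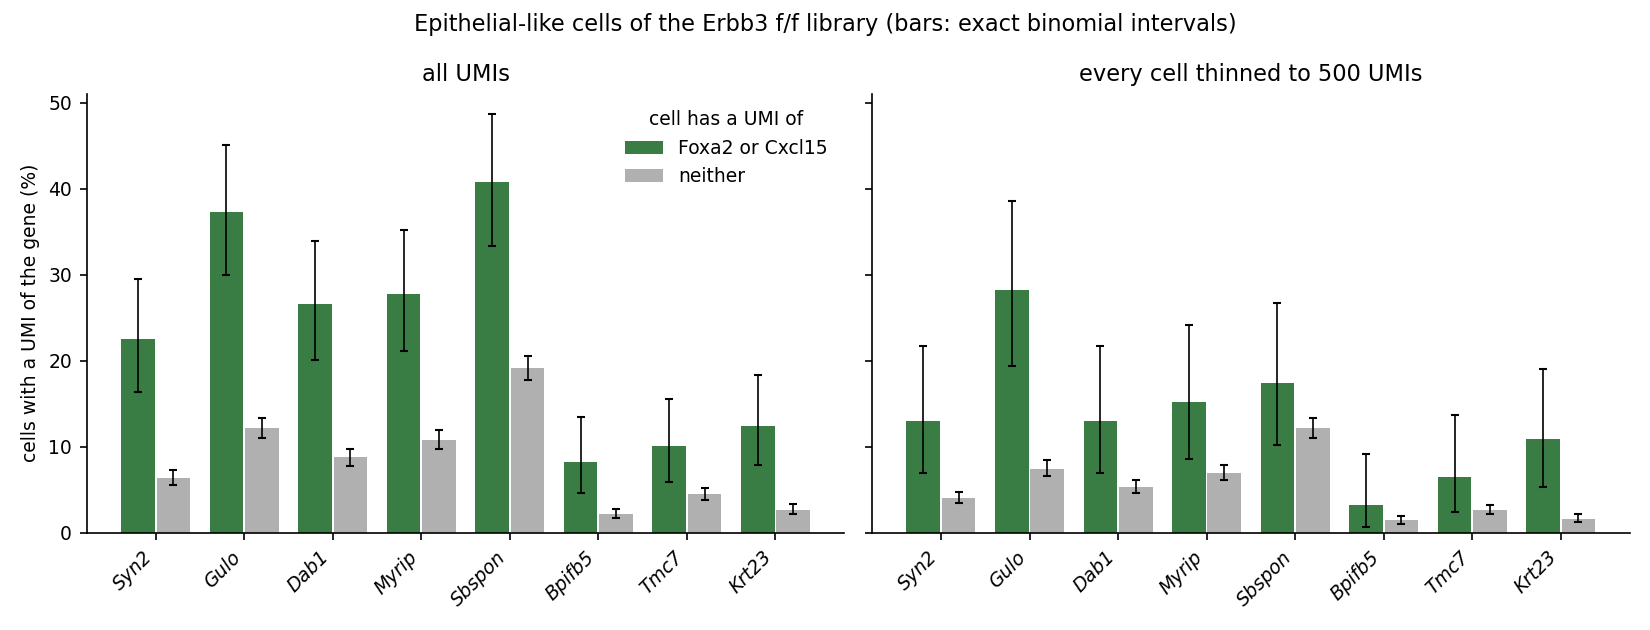
Share of Erbb3 f/f epithelial-like cells with a UMI of each gene (y axis; x axis: the 8 genes), in green for cells that also had a UMI of Foxa2 or Cxcl15 and in grey for cells with neither; left with all UMIs, right with every cell thinned to 500 UMIs. Bars are exact 95% binomial intervals, and the green column is the higher for each gene in both panels.

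The members also met one another in single cells. Over the 28 pairs of members in f/f epithelial-like cells, the number of cells with both genes was 1.64 to 4.43 times the product of their shares, with a median of 2.29. Inside f/f glandular-like cells the median was 1.29, the range 0.899 to 2.18, and 6 of 28 pairs had an interval above 1. The highest was Tmc7 with Krt23, with 18 cells against 8.25 from the product. Inside f/f luminal-like cells the median was higher, at 2.69, the range 0.978 to 8.09, and 24 of 28 pairs had an interval above 1. Joint detection above the product was thus found in both classes. No share over all pairs of genes was computed, so nothing is read from these counts of pairs. These counts were not corrected for depth, since deeper cells have more of every gene.

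Across 13 clusters of at least 50 cells, with epithelial-like cells split further, the mean of the members' log2(CPM + 10) followed most closely that of Rdh1, a retinol dehydrogenase (Pearson r = 0.978), Hgfac, the HGF activator (0.967), Plaat3 (0.958), Wars1 (0.94), Clic6 (0.929), Gng12 (0.920), Cxcl15 (0.92), Tex2 (0.917), Sh3rf2 (0.917) and Fam83a (0.915). These are the 10 highest of 9726 genes with at least 100 UMIs, the points share libraries and depth, and with so few points high values of r also arise among unrelated genes, so the order is a description. Rdh1 was lower in d/d glandular-like cells, at 98.8 CPM from 8 UMIs against 415 CPM from 278 UMIs in f/f. Gng12 was not, at 976 CPM from 79 UMIs against 856 CPM from 574.

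For single members the closest gene was Cxcl15 for Syn2 (r = 0.96), Kcnc4 for Gulo (0.96), Snhg11 for Dab1 (0.93) and Kit for Myrip (0.95). It was Slc44a3 for Sbspon (0.98), Gng12 for Bpifb5 (0.96), Ptprk for Tmc7 (0.92) and Znfx1 for Krt23 (0.91). Among the members themselves, the clusters' levels of Gulo and Sbspon were most alike (r = 0.96) and those of Gulo and Krt23 least (0.50). The mast cell marker Kit had 44 UMIs in f/f glandular-like cells, where the other mast cell markers Cpa3 and Cma1 had 0.

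The partners of each member were read from lists, as their log2 ratio of glandular-like over luminal-like cells in f/f and of d/d over f/f in epithelial-like cells, beside medians of 0.05 and -0.02 over all genes. Of all 11213 genes with at least 20 epithelial-like UMIs, 17.2% had an interval above 0 and 15.9% below 0 in the first ratio, and 19.8% above and 18.5% below in the second, and the counts of each list are set beside these shares. These lists were drawn up with earlier results of these data known. Of the 10 known gland genes with at least 20 epithelial-like UMIs, 8 had an interval above 0 in glandular-like cells and none below, with a median of 2.68, and 6 had an interval below 0 in d/d and 3 above. Of these 10, Foxa2, Cxcl15, Wfdc3, Spink1, Sox9 and Aldh1a1 are among the 8 markers that named the class, so the list is not independent of it, and the interval of Aldh1a1 included 0. Gas6 (2.92 and -1.59) and Cited4 (1.65 and -1.42) were among the 6 lower in d/d, and Axin2 (1.26 in d/d over f/f), Aldh1a1 (1.75) and Lif (1.55) were the 3 higher.

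In the vitamin C pathway, the enzymes that feed UDP-glucuronate, Ugdh (1.29, 0.77 to 1.80) and Ugp2 (0.65, 0.21 to 1.08), were higher in f/f glandular-like cells, while Slc23a1, a vitamin C transporter, was lower (-0.66, -0.90 to -0.42) and Akr1a1 (-0.06) and Gusb (-0.34) had intervals that included 0. The median of the 6 listed genes counted was 0.29. In d/d over f/f, Slc23a1 stood at -1.07 (-1.29 to -0.85), Ugdh at -0.82 (-1.49 to -0.21) and Ugp2 at -0.71 (-1.20 to -0.25), and Gusb was higher at 0.42 (0.11 to 0.73). The other transporter listed, Slc23a2, had intervals that included 0 in both ratios. It stood at 1.14 (-0.13 to 2.32) in glandular-like over luminal-like cells and at 0.67 (-0.34 to 1.61) in d/d over f/f.

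Around Dab1, the reelin receptor Vldlr was lower in f/f glandular-like than luminal-like cells (-1.12, -2.23 to -0.18), the receptor Lrp8 had an interval that included 0 (-0.84), and reelin itself, Reln, had 2 UMIs in all epithelial-like cells. None of the 6 genes counted in this list had an interval above 0 in glandular-like cells, and their median was -0.47. Around Syn2, the synapsin Syn3 had an interval that included 0 (0.42, -0.16 to 0.96), Syn1 had 1 UMI and Syp 0 in epithelial-like cells, and of 8 genes counted 1 was higher (Stxbp2, 0.18) and 1 lower (Stx1a, -0.83). Timp4, which lies within Syn2, had 2 UMIs in epithelial-like cells.

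Around Myrip, 3 of 10 genes counted were higher in f/f glandular-like cells, namely the Rab27 effectors Exph5 (2.14, 1.13 to 3.16), Mlph (1.23, 0.87 to 1.58) and Sytl1 (0.66, 0.17 to 1.14), and Rab27b, with 0 glandular-like and 37 luminal-like UMIs in f/f, was the 1 lower. Of the other Tmc genes, 3 of 4 counted were lower in glandular-like cells (Tmc4, Tmc5 and Tmc6) and the median was -1.38. Of the other keratins, 4 of 5 counted were lower (Krt7, Krt8, Krt19 and Krt80), among them Krt19 at -2.21 (-2.48 to -1.95). Of the BPI fold relatives only Lbp and Pltp reached 20 UMIs, and both were higher, at 1.06 (0.96 to 1.17) and 0.84 (0.36 to 1.31). Of 5 other genes with thrombospondin repeats counted beside Sbspon, none had an interval clear of 0, and their median was 0.11.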

How the data were processed

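Endometrial cells of 1 Erbb3 f/f and 1 Erbb3 d/d library were analysed from the deposited matrices, which hold UMI counts per gene and barcode, not normalized; Cell Ranger 9.0.0 made them, per the file headers. The genome build behind the counts is not settled, since the submitters' processing notes name mm10 and GRCm39 with no role. Barcodes with under 200 genes or a mitochondrial share above 10% were left out. Scrublet called 1 f/f and 5 d/d doublets, too few to have worked. With scanpy 1.11.5, the counts were scaled to 10000 per cell and logged, and Leiden clusters (resolution 1, 2000 variable genes, 30 components, 15 neighbours) were built without the 8 members.

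The members and lists were chosen with earlier results of these data known. Of 3 naming rules, the second and the third were each set after the clusters of the one before had been seen. The leading genes of those clusters were in view, members among them. The third rule, used here, named 820 f/f and 117 d/d cells glandular-like, the first 113 and 291, and the second 0 and 0.

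Levels are UMIs per 1000000 of a class (CPM), with exact Poisson intervals; ratios have exact conditional binomial and shares Clopper-Pearson intervals. No test was run, since each genotype had 1 library. Genes named besides the members were the 10 with the highest Pearson r over clusters to their mean, the closest one for each member, and list genes with at least 20 epithelial-like UMIs; Reln, Syn1, Syp, Timp4, Prss28, Cpa3 and Cma1 were named for their low counts, and Kit and the leading genes of clusters for what they mark, after their values were seen. Promoter motifs were chosen after the sequences had been seen. The ratio step recovered planted changes in simulated counts; the r ranking recovered planted genes in part, and the simulation, not the ranking, was changed after a lower first recovery. Settings tried are given in the closing section.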

Additional observations from a re-analysis of the deposited data

Results flagged for a closer look

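Barcodes left out for their mitochondrial share, or as doublet calls, also carried the 8 genes, in data that no comparison above uses. The 281 such barcodes of the f/f library held 585 UMIs of the members, or 448.9 CPM (413.2 to 486.8), against 733 CPM in the cells used. The 300 of the d/d library held 265 UMIs, or 227.9 CPM (201 to 257), against 363 CPM in the cells used. In both libraries the level was thus above what a count of 0 allows and below that of the cells used, and the left-out d/d barcodes stood below the left-out f/f barcodes. With these barcodes included, d/d over f/f gave a log2 ratio per epithelial marker UMI of -1.21 (-1.32 to -1.11).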

How the results depend on the processing

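With 1 library per genotype, animal, preparation and genotype cannot be told apart. No paired analysis was possible because each genotype had 1 library and no test was run. The d/d glandular-like cells held 102 UMIs of the 8 genes, which limits single genes there.

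The sum of the 8 genes was lower in d/d epithelial-like cells under all 11 alternatives, between -1.36 and -1.21 under the 8 planned ones; the 3 with other naming rules were added after seeing the data, and the first rule gave -0.49. Per epithelial marker UMI the log2 ratio was -1.31 with cells thinned to 500 UMIs and -1.01 per total UMI. For f/f glandular-like over luminal-like cells, the sum's log2 ratio moved from 2.59 to 2.46 without the highest doublet scores, 2.42 with each library clustered on its own, 2.28 thinned, 1.40 under the first naming rule and 1.59 under the second rule with the members in the clustering; the second rule without them named no glandular-like cell and gave no value. The share of Foxa2- or Cxcl15-positive cells with a member was 68.5% when cells were thinned before clustering. Krt23 in glandular-like cells reversed to -0.14 at resolution 0.5, -2.01 with each library clustered on its own, -0.26 thinned and -0.016 under the first rule. The cause of these moves was not tested. Of 88 single-gene values in epithelial-like cells 80 stayed within the interval and 8 moved out of it, and of 80 in glandular-like cells 63 stayed, 13 moved and the 4 of Krt23 reversed. Sign changes of values whose interval included 0 are not among those reversed. They are Krt23 in epithelial-like cells, at 1.32 under the first rule, 0.0019 without the highest doublet scores and 0.057 with each library clustered on its own, and Dab1 in glandular-like cells, at 0.14 with the mitochondrial share at most 5%. Of the 10 genes most like the members, 7 remained in the f/f library alone, 7 with a pseudocount of 1 and 8 with at least 20 UMIs.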
